A study of Mus musculus domesticus and Mus musculus molossinus with 8 samples.

Results

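Of 23284 genes measured in 4 mouse thymi, 187 stood apart in the thymus of the untreated MSM/Ms (MSM) mouse. They were chosen as the genes with at least 10 FPKM (a fragment count corrected for the length of the transcript and the size of the library) in that thymus and at least 4 times the highest level among the other 3 thymi. The 187 genes were 4.26% of the 4387 genes at 10 FPKM or more in that thymus. Since these values chose the genes, their levels in the 4 thymi are a description, and nothing is read from that share. Each group held 1 library, so no difference below has a replicate check and no test was made.

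The study compared the thymus and the liver of 4 mice, aged 8 weeks, from C57BL/6 (B6), the strain of the mouse reference genome, and from MSM, an inbred strain derived from Japanese wild mice. In each strain 1 mouse was untreated and 1 mouse received 1.5 µg of MegaFasL, a multimeric recombinant Fas ligand, into the peritoneal cavity. This gave 8 groups of 1 library each: the untreated B6 thymus, untreated MSM thymus, untreated B6 liver, untreated MSM liver, and the same 4 from the injected mice. Liver and thymus came from the same mouse, and the sex of the mice and the time after injection were not stated in the labels. Untreated and injected libraries lay in separate tables that had been normalized separately, so levels set side by side across treatments rest on separate normalizations.

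The thymus is the organ in which T cells mature, and most of its cells are thymocytes that rearrange their antigen receptor genes. It lies in the chest beside the trachea, embedded in fat that includes brown fat, with lymph nodes close by. Thymic epithelial cells of the medulla also transcribe low levels of many genes that are otherwise limited to other organs, partly through the regulator Aire.

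All 4 libraries labelled thymus held thymocyte transcripts at high levels. The recombinase gene Rag1 was at 586.6 FPKM in the untreated B6, 488.7 in the injected B6, 306.0 in the injected MSM and 198.6 in the untreated MSM thymus. The summed level of 18 thymocyte genes was 2146 FPKM in the untreated MSM thymus and 3190 to 3242 FPKM in the others, so that thymus was the lowest. The summed level of 12 thymic epithelial genes was likewise lowest there, at 446 FPKM against 692 to 758 FPKM, and Aire was at 1.03 FPKM against 2.04 to 4.64 FPKM. At 10 FPKM or more in that thymus, 0 of 5 epithelial and 0 of 17 thymocyte genes exceeded the highest other thymus. Not all were lowest there. Tcf7 (237 against 215 FPKM) and Ccr9 (90.1 against 88.1 FPKM) were above the untreated B6 thymus. The epithelial regulator Foxn1, at 2.62 FPKM, was above the 1.89, 2.45 and 1.25 FPKM of the untreated B6, injected B6 and injected MSM thymi. In bulk tissue, fewer cells of a type and less RNA per cell cannot be told apart.

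The same rule, applied with each of the other thymi in turn, found far fewer genes. It found 7 genes for the untreated B6 thymus (0.165% of those at 10 FPKM or more in it), 14 for the injected B6 thymus (0.318%) and 6 for the injected MSM thymus (0.135%). Most of those were small nucleolar RNA or microRNA genes. In the opposite direction, 12 of 3574 genes at 10 FPKM or more in the other 3 thymi were at least 4 times below their lowest level in the untreated MSM thymus (0.336%): 9 small nucleolar RNA genes, the histone genes Hist1h2bb and Hist1h2bm, and S100a8. The same count downward was 3 genes for the untreated B6 (0.0864%), 2 for the injected B6 (0.058%) and 5 for the injected MSM thymus (0.146%). The 187 genes summed to 12249 FPKM, or 3.89% of the FPKM sum of that library, against 0.211%, 0.214% and 0.256% in the untreated B6, injected B6 and injected MSM thymi.

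Every one of the 187 genes was above the upper bound of the deposited interval in each of the other thymi. The rule itself favours this, so it is not a separate check. The lower bound is 0 for all genes in the thymi, so the deposited intervals themselves overlap. In 11 genes the other 3 thymi were all listed at 0. For the remaining 176, the ratio to the highest other thymus had a median of 13.4, quartiles of 6.93 and 21.1 and a maximum of 117, reached by Mup3. The highest of the other thymi was the injected MSM thymus for 93 genes, the untreated B6 thymus for 47 and the injected B6 thymus for 36. At the edge of the ratio limit, Hrsp12, Lpl and Dbi were just inside at 4.03, 4.07 and 4.14 times, and Cidec, Acadvl and Stard10 just outside at 3.88, 3.88 and 3.86 times. At the edge of the level limit, Cyp2d10, Nrn1 and Pank1 were just inside at 10.05, 10.2 and 10.2 FPKM, and Serpinf2, Sdpr and C4bp just outside at 9.97, 9.93 and 9.90 FPKM.

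**Figure D1:**
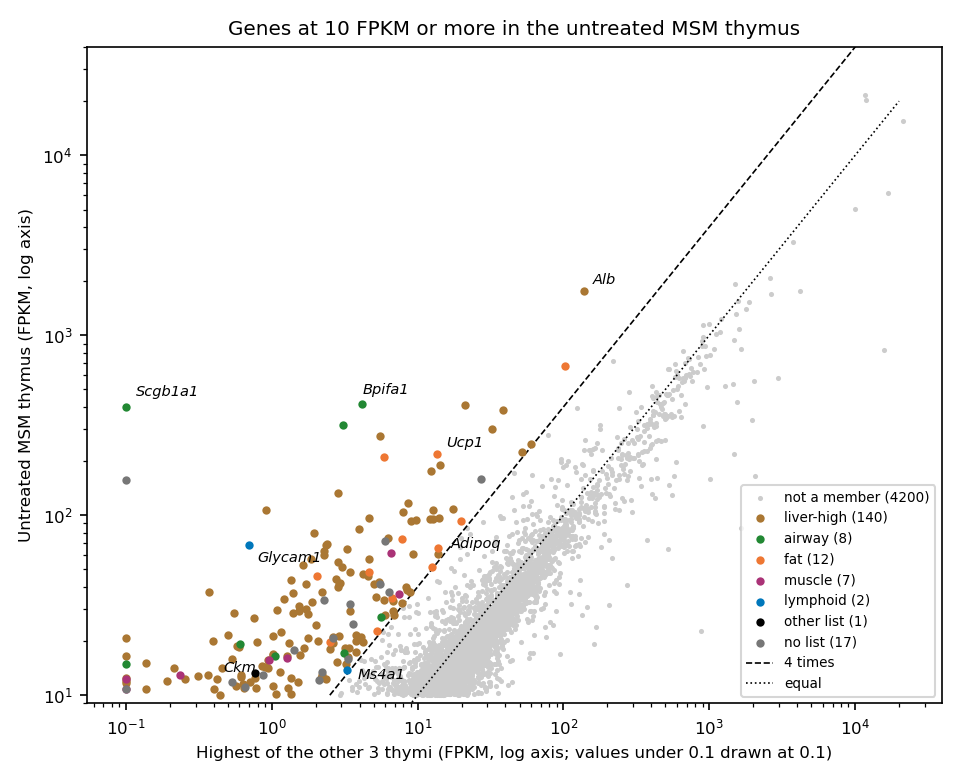
Level in the untreated MSM thymus (FPKM, log axis) of the 4387 genes at 10 FPKM or more in it, against the highest level in the other 3 thymi (FPKM, log axis, values under 0.1 drawn at 0.1). Each point is a gene, coloured points are the 187 genes above the dashed line of 4 times, and most of these are high in liver (140 genes), with airway, fat, muscle and lymphoid genes among the rest.

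Most of the 187 genes were at a higher level in liver than in the untreated MSM thymus. In the liver of the same mouse 132 of them were at 4 times their thymus level or more, in the liver of the untreated B6 mouse 138 were, and 130 were in both livers. Together 140 were liver-high in at least 1 untreated liver. The other 47 comprised 8 airway genes, 12 fat genes, 7 muscle genes, 2 lymphoid genes, the cartilage gene Cytl1 and 17 genes on none of 28 marker lists. Liver-high genes of the fat and airway lists, among them Pck1, Acsl1, Car3, Cyp2f2 and Pigr, count among the 140. The share of liver-high genes among all 4387 genes at 10 FPKM or more in the untreated MSM thymus was not computed.

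Secreted liver proteins were present almost as a complete set. Of 30 genes for proteins that hepatocytes secrete into plasma, 29 were among the 187, all but Fetub, which was at 5.91 FPKM. Over all 23284 genes, 187 met the rule, and this share stands beside each list count here and below. The lists were chosen with earlier results of these data known. Alb, which encodes serum albumin, was at 1773 FPKM, against 24.1 FPKM in the untreated B6, 49.8 in the injected B6 and 139 in the injected MSM thymus. The apolipoprotein gene Apoa2 was at 408 FPKM against 3.64, 7.44 and 21.1 FPKM in the same order. The fibrinogen chain gene Fgb was at 83.7 FPKM against 0.212, 0.865 and 3.98 FPKM. For Alb, Apoa2 and Fgb the untreated MSM thymus was highest and the injected MSM thymus second. For Apoc1, Hp, Vtn, Hrg and Hamp of the same list a B6 thymus was second.

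Enzymes of hepatocytes were also well represented. Of 34 genes on the enzyme list, 22 were among the 187, which came from 23284 genes in all. Fabp1, the fatty acid binding protein of liver, was at 274 FPKM against 5.01, 3.07 and 5.54 FPKM in the untreated B6, injected B6 and injected MSM thymi. Cps1, the first enzyme of the urea cycle, was at 40.0 FPKM against 0.902, 2.57 and 2.85 FPKM. Cyp2e1, a cytochrome P450 of the liver, was at 109 FPKM against 5.67, 17.4 and 14.8 FPKM.

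Most hepatocyte list genes lay at a similar percent of their liver level. Both hepatocyte lists held 60 genes at 100 FPKM or more in all 4 livers. Their untreated MSM thymus level had a median of 3.14% of the liver level in the same mouse, with quartiles of 2.37% and 3.72%. The lowest value was 0.778% and the highest was 13.0%, for Hamp. Of the 4 list genes below that liver limit, Gys2 was at 6.59%, Ass1 at 4.48%, Cyp4a12a at 0.681% and Cyp2d9 at 0.135%. The same 60 genes had medians of 0.0408%, 0.0656% and 0.158% of the own liver in the untreated B6, injected B6 and injected MSM mouse. None of the 60 was at 0 in the untreated MSM thymus, and 11, 4 and 1 were at 0 in the others. In the reverse direction, the 18 thymocyte genes had a median in liver of 0.346% of the thymus level in the untreated MSM mouse and of 1.68%, 0.430% and 0.158% in the untreated B6, injected B6 and injected MSM mouse.

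**Figure D2:**
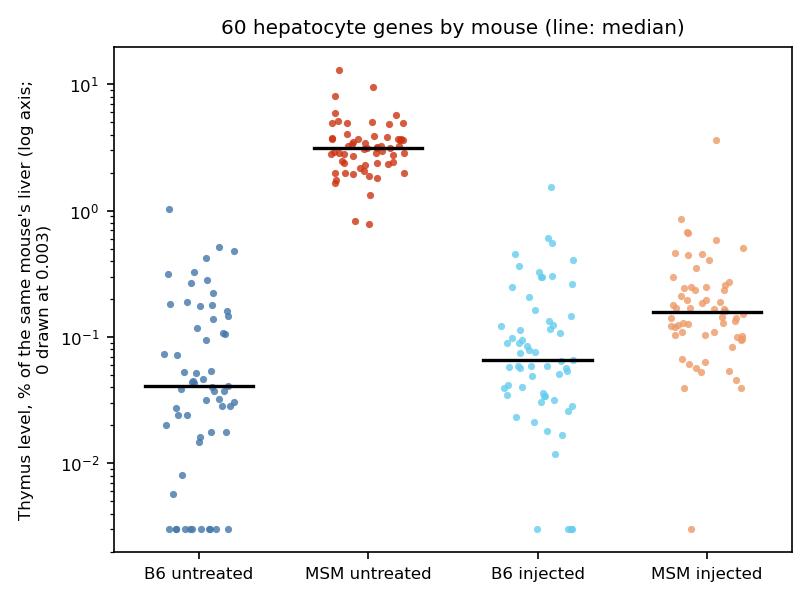
Level of 60 hepatocyte genes in each thymus as a percent of the liver level in the same mouse (log axis, 0 drawn at 0.003), 1 point per gene and a line at the median. The untreated MSM thymus has a median of 3.14%, above the medians of 0.0408% to 0.158% in the other thymi.

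The proportions were next read against the livers of both untreated mice. Among the 140 liver-high genes, 18 were at least 2 times higher in the untreated B6 than in the untreated MSM liver. Their median in the untreated MSM thymus was 2.97% of the B6 liver level, with quartiles of 2.66% and 3.36%. Against the liver of the same mouse the median was 13.0%, with quartiles of 9.44% and 39.4%, over the 17 genes above 0 there. Another 116 differed by less than 2 times between these livers and had medians of 3.31% of the B6 and 3.51% of the MSM level. The remaining 6 were at least 2 times higher in the MSM liver, and their levels were scattered, with medians of 13.5% of the B6 and 6.02% of the MSM level. Cyp3a11 and Tat lay nearer to 3% of the B6 level, at 2.64% and 2.71% of the B6 and 0.835% and 1.33% of the MSM level. Apoc2 was at 8.98% of the B6 and 3.73% of the MSM level, and Cyp2f2, Chpt1 and 5730469M10Rik were above 8% of both. So the 18 genes higher in the B6 liver followed that liver, and the 6 higher in the MSM liver followed neither as a group. Membership required 10 FPKM in the thymus, which favours genes with more liver transcript, so gene sets that use no value of the untreated MSM thymus were formed after this pattern was seen.

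A first set, called B6-liver genes, held genes at 50 FPKM or more in both B6 livers, at least 8 times their level in both MSM livers, and at most 2 FPKM in the other 3 thymi. This set had 22 genes. In the untreated MSM thymus 21 of the 22 were above 0, and 5 were among the 187. Their median was 2.80% of the untreated B6 liver level, with quartiles of 2.62% and 4.34%. The gene at 0 was 9030619P08Rik, with 87.4 FPKM in the untreated B6 liver.

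Mup3 had the highest level of the 22 in the untreated MSM thymus. It encodes a major urinary protein, a carrier of pheromones that the liver secretes, and lies at chr4:62083476-62087342 on the minus strand (mm10). Mup3 was at 106 FPKM in the untreated MSM thymus, and at 0, 0.420 and 0.909 FPKM in the untreated B6, injected B6 and injected MSM thymi. In the livers Mup3 was at 3781 FPKM in the untreated B6, 2517 in the injected B6, 31.1 in the untreated MSM and 19.8 in the injected MSM mouse. Its thymus level was thus 2.81% of the untreated B6 liver level and 342% of the level in the liver of the same mouse. The excess over the own liver was larger for Cyp2b9, a cytochrome P450, at 1747% (12.1 FPKM, against 0.690 FPKM in the untreated MSM and 435 FPKM in the untreated B6 liver). The transcript 1100001G20Rik was at 43.6 FPKM in that thymus, at 0 in both MSM livers and at 1276 FPKM in the untreated B6 liver. Cyp4a14 was at 12.4 FPKM, 2.61% of the B6 and 272% of the MSM liver level, and Cyp2d26 at 13.0 FPKM, 2.64% of the B6 and 57.0% of the MSM level. Mup3, Cyp2b9, Cyp2d26, Cyp4a14 and 1100001G20Rik were chosen for mention after their values were seen.

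The opposite set, called MSM-liver genes and formed by the same limits with the strains exchanged, held 7 genes: Akr1c18, C6, Cyp2c39, Cyp2d9, Cyp4a12b, Gm4794 and Mup1. None was among the 187, and the highest level in the untreated MSM thymus was 0.805 FPKM, for the complement gene C6. Their median was 0.115% of the level in the liver of the same mouse. Mup1, a close relative of Mup3, was at 519 FPKM in the untreated MSM liver, 4.10 FPKM in the untreated B6 liver and 0.597 FPKM in the untreated MSM thymus. Another set of 73 genes was at 200 FPKM or more in all 4 livers and at most 2 FPKM in the other 3 thymi. It had medians of 2.93% of the untreated B6 and 2.82% of the untreated MSM liver level, with standard deviations over genes of 0.50 and 0.59 on the log2 scale. So genes high only in the B6 livers were present at about the same percent as genes high in all livers, and genes high only in the MSM livers were not.

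**Figure D3:**
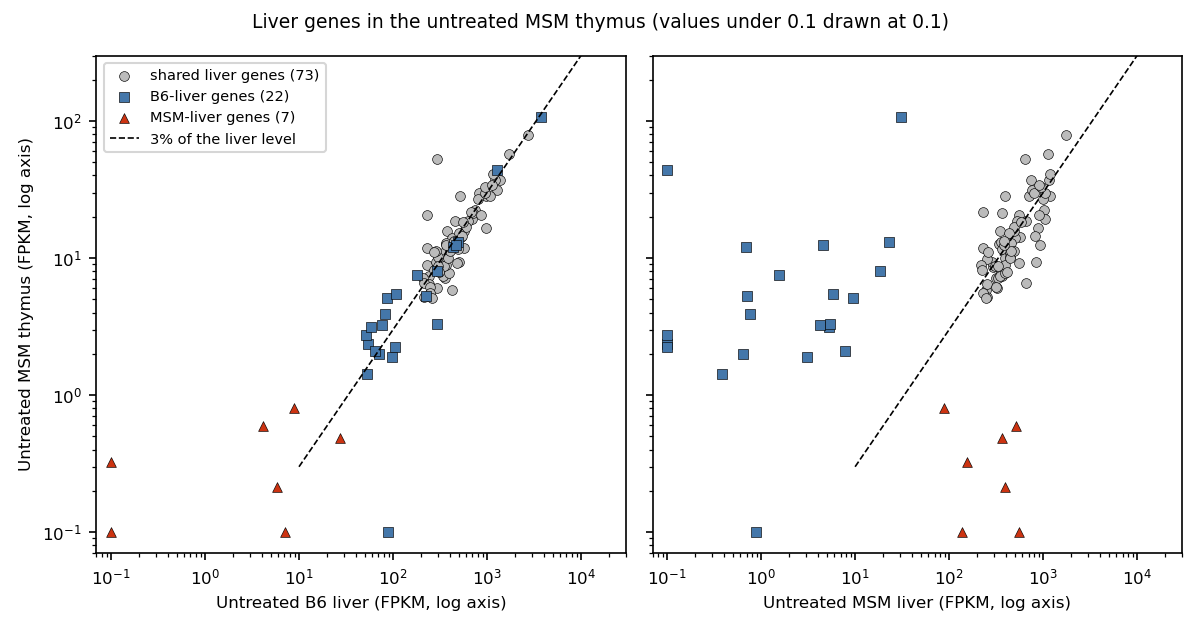
Level in the untreated MSM thymus (FPKM, log axis) against the untreated B6 liver (left) and the untreated MSM liver (right, FPKM, log axes, values under 0.1 drawn at 0.1), for 73 shared liver genes, 22 B6-liver genes and 7 MSM-liver genes. Against the B6 liver most shared and B6-liver genes lie near the dashed line of 3%, and against the MSM liver the B6-liver genes above 0 in the thymus lie above it and the MSM-liver genes below it.

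Mup3 and Mup1 differ enough in sequence for reads to be told apart over much of their length. Their coding sequences, from the GENCODE M21 transcripts (mm10, chromosome 4), were 84.3% identical over 543 aligned bases. The stretch of 60 bases with the most differences, 21, is shown as an example of how this pair differs. It spans coding bases 224 to 283 of Mup3 and 212 to 271 of Mup1, counted from the first base of the start codon, 5′ to 3′, with capitals for the bases that differ.
Mup3: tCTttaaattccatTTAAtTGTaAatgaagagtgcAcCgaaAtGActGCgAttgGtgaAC
Mup1: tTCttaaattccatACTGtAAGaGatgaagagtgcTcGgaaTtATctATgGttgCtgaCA
Of all 50-base windows of the Mup3 transcripts, 13.3% occurred in another gene, against 61.6% for Mup1, so levels of Mup1 are uncertain. The share was above 20% for 5 of the 22 B6-liver genes (Mup2 78.2%, Sult2a2 62.1%, Apol9b 52.3%, Ceacam1 30.4% and Cyp2b13 27.3%) and for 3 of the 7 MSM-liver genes (Mup1, Cyp4a12b 49.4% and Cyp2d9 21.8%), whose levels are uncertain in the same way. The transcripts 1100001G20Rik and Gm4794 were not matched to GENCODE. The 16 B6-liver genes at or below 20% had a median of 2.77% of the untreated B6 liver level. The 3 such MSM-liver genes, Akr1c18, C6 and Cyp2c39, had a median of 0.0540% of the untreated MSM liver level. Reads of MSM origin were aligned to the B6 reference, and a gene of divergent MSM sequence can lose reads, so a low level and a loss in alignment cannot be told apart in an MSM library. Every library was aligned to the same reference, which does not remove this limit. The B6-liver genes were chosen in part as low in the MSM livers, where such a loss can occur. Their percent of the B6 liver level also sets an MSM library against a B6 library.

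Genes that the limit on the other thymi had left out were read in the same way. Requiring at most 2 FPKM in the injected MSM thymus alone added 3 genes, Akr1c12, H2-K1 and Socs2. Akr1c12 was at 2.75 FPKM in the untreated MSM thymus, 4.65% of the untreated B6 liver level. The untreated and injected B6 thymi had 2.26 and 1.73 FPKM of Akr1c12. Socs2 was at 3.40 FPKM or 6.13%, against 1.86 and 2.22 FPKM in the same B6 thymi. H2-K1, a class I histocompatibility gene that is highly polymorphic between strains, was at 163 and 156 FPKM in the untreated and injected B6 thymi and at 0.667 FPKM in the injected MSM thymus. In the untreated MSM thymus it was at 19.1 FPKM, 2.42% of the 791 FPKM in the untreated B6 liver, while the liver of the same mouse had 3.20 FPKM. The haemoglobin gene Hbb-b1 did not follow, although its level is uncertain because near-identical copies share reads. It was at 67.5 FPKM in the untreated B6 liver and at 0.00707 FPKM in the untreated MSM thymus.

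Genes that part the strains in thymus were mostly far from B6 thymus levels in this library. Small RNA genes with symbols starting with Snor, Scarna or Mir were set aside. There were 23 genes at 20 FPKM or more in both B6 thymi and at least 8 times their level in the injected MSM thymus. In the untreated MSM thymus 22 of them, all but Gm6644, were at least 4 times below both B6 thymi. Several of the 23 are histone genes, such as Hist1h2ak and Hist1h2bb. H2-K1 is one of the 22, at 19.1 FPKM, although it was well above its 0.667 FPKM in the injected MSM thymus. Of 13 genes high in the injected MSM thymus by the same limits, 12 were at least 4 times above both B6 thymi, all but AA467197. The 13 still include Rprl3, a short RNA gene that the symbols set aside do not cover. Cd96, a receptor of T and natural killer cells, was at 32.2 and 24.3 FPKM in the untreated and injected B6 thymi, 2.11 FPKM in the injected MSM thymus and 0 in the untreated MSM thymus. Ifi27l2a was at 53.4 and 50.05 FPKM in the B6 thymi and at 0 in both MSM thymi. Ifitm2, an interferon-induced membrane protein gene, was at 355 and 523 FPKM in the untreated and injected MSM thymi and at 17.1 and 14.0 FPKM in the B6 thymi. Some genes of the liver sets, such as Cyp2b9 and Cyp2d9, are also known to differ between female and male mouse liver. Xist, the RNA that silences an X chromosome in female cells, was at 73.0 to 148 FPKM in all 8 libraries, and the Y-linked genes Ddx3y, Eif2s3y, Kdm5d and Uty were listed at 0 in all 8. These genes were named after their values were seen.

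Whether the liver transcripts resembled the untreated or the injected B6 liver was not resolved. Of 11 liver genes that differed at least 3 times between those livers, 5 were closer to the untreated, 5 closer to the injected liver and 1 was at 0. Only levels were compared, and no strain differences in the sequence of reads were examined. How liver transcripts in proportions nearer to the B6 liver came to be in the untreated MSM thymus library was not tested.

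Some liver-high genes exceeded this proportion. Of 130 genes high in both livers, 8 were above 10% of both untreated liver levels. Among these 8, Pck1, the gluconeogenic enzyme that fat also uses, was at 95.1 FPKM, 21.7% of the B6 and 13.0% of the MSM liver level. Ces1d, a carboxylesterase of liver and fat, was at 104 FPKM or 15.8% and 21.9%. Of the genes high in only 1 of the livers, Dbi, an acyl-CoA binding protein, was at 249 FPKM or 16.7% and 25.7%. Chpt1, an enzyme of phosphatidylcholine synthesis, reached 60.6% of the B6 and 24.1% of the MSM liver level, at 37.3 FPKM. At the other end, Tat, Gnmt, Tdo2, Ces3a and Serpina3k were at 1.33% to 1.88% of the MSM and 2.39% to 3.00% of the B6 liver level.

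Airway secretory genes, most of them listed at 0 in the livers, were among the highest of the 187 genes. Scgb1a1, the secretoglobin that marks club cells of the airway (chr19:9083636-9087958, minus strand, mm10), was at 400 FPKM in the untreated MSM thymus and at 0 in the other 3 thymi. From the estimated depth, that level stands for about 312 fragments. Bpifa1, a secreted defence protein of the upper airway, was at 415 FPKM against 4.18, 3.95 and 1.07 FPKM in the untreated B6, injected B6 and injected MSM thymi. Scgb3a1, another airway secretoglobin, was at 316 FPKM against 0, 3.06 and 0 FPKM. All 3 genes were listed at 0 in both untreated livers.

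Most airway genes of lower level were also highest in the untreated MSM thymus. The antimicrobial lectin gene Reg3g was at 27.3 FPKM against 5.58, 3.63 and 3.37 FPKM, and Bpifb1 at 19.3 FPKM against 0.607, 0 and 0 FPKM. Ltf, which encodes lactoferrin, was at 16.5 FPKM against 0.457, 1.05 and 0.505 FPKM, and Scgb3a2 at 14.9 FPKM against 0 in the others. Cyp2f2, a P450 of club cells and of liver, was at 52.8 FPKM, 18.1% of the B6 and 8.30% of the MSM liver level, above the 3.14% typical of hepatocyte genes. In all, 9 of 18 airway secretory genes in the tables were among the 187, Pigr included. Others differed little from the highest other thymus. Cbr2 was at 71.8 FPKM against 38.3, 54.7 and 12.1 FPKM, and Cldn10 at 9.05 FPKM against 4.98, 1.40 and 8.63 FPKM.

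Genes of ciliated cells were also higher, at lower levels. Of 15 genes of ciliated cells 1 was among the 187, Tppp3 at 17.2 FPKM. The ciliary regulator Foxj1 was at 2.09 FPKM, and at 0, 0 and 0.135 FPKM in the untreated B6, injected B6 and injected MSM thymi. Of the 12 ciliated genes under 1 FPKM in both untreated livers, 9 had their highest thymus level in the untreated MSM thymus, and their sum was 24.4 FPKM against 2.44, 5.04 and 7.36 FPKM. None of 8 alveolar genes was among the 187, and the surfactant gene Sftpc, which marks type II cells of the lung alveoli, was at 0 in all 4 thymi. Sftpb, a surfactant gene of alveolar and club cells, was at 2.54 FPKM against 0.174, 0 and 0 FPKM. The goblet cell mucin gene Muc5ac was at 0.0426 FPKM. No gene of squamous epithelium met the rule, and the salivary list gave only Azgp1, which was at 746 FPKM in the B6 liver. Cytl1, a gene of cartilage, was at 13.3 FPKM against 0, 0.768 and 0 FPKM, and the cartilage collagen gene Col2a1 at 1.65 FPKM against 0.184, 0.125 and 0 FPKM. Of the 8 cartilage genes under 1 FPKM in both untreated livers, 6 were highest in the untreated MSM thymus, and their sum was 21.4 FPKM against 2.01, 3.05 and 3.21 FPKM. Of all 4387 genes at 10 FPKM or more in that thymus, 1180 were above the highest other thymus. No such share was computed for all genes under 1 FPKM in both untreated livers. The limits differ, so the 1180 genes are no baseline for the ciliated and cartilage counts.

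Brown fat transcripts were found in every thymus, and most were highest in the untreated MSM thymus. Ucp1, the uncoupling protein that brown fat uses to make heat (chr8:83290352-83298452, plus strand, mm10), was at 220 FPKM there and at 13.7, 7.81 and 8.23 FPKM in the untreated B6, injected B6 and injected MSM thymi. Cox7a1, a respiratory chain subunit of brown fat and muscle, was at 212 FPKM against 1.77, 1.81 and 5.87 FPKM. Cidea, a lipid droplet protein, was at 48.6 FPKM against 3.32, 4.62 and 1.00 FPKM, and Fabp3, a fatty acid binding protein, at 46.1 FPKM against 0, 2.03 and 0.733 FPKM.

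Not every brown fat gene followed. Of 14 genes on the list 4 were among the 187. Cox8b, another respiratory subunit of brown fat and muscle, was lower in the untreated MSM thymus, at 8.80 FPKM, than in the untreated B6 (21.6 FPKM) and injected B6 (11.0 FPKM) thymi, and was at 1.99 FPKM in the injected MSM thymus. Zic1, a transcription factor gene of brown fat, was at 0 in all 4.

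General fat genes were higher as well. Of 27 genes on the list 11 were among the 187. Fabp4, the fatty acid binding protein of adipocytes, was at 677 FPKM against 103, 89.9 and 77.5 FPKM. Adipoq, which encodes the adipocyte hormone adiponectin, was at 65.3 FPKM against 13.8, 12.4 and 9.97 FPKM, and Plin1, which coats lipid droplets, at 19.9 FPKM against 1.92, 0.894 and 2.52 FPKM. The adipokine gene Retn was at 18.7 FPKM against 13.8, 6.25 and 1.69 FPKM, below the limit of 4 times, and the leptin gene Lep did not exceed 0.232 FPKM in any thymus.

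**Figure D4:**
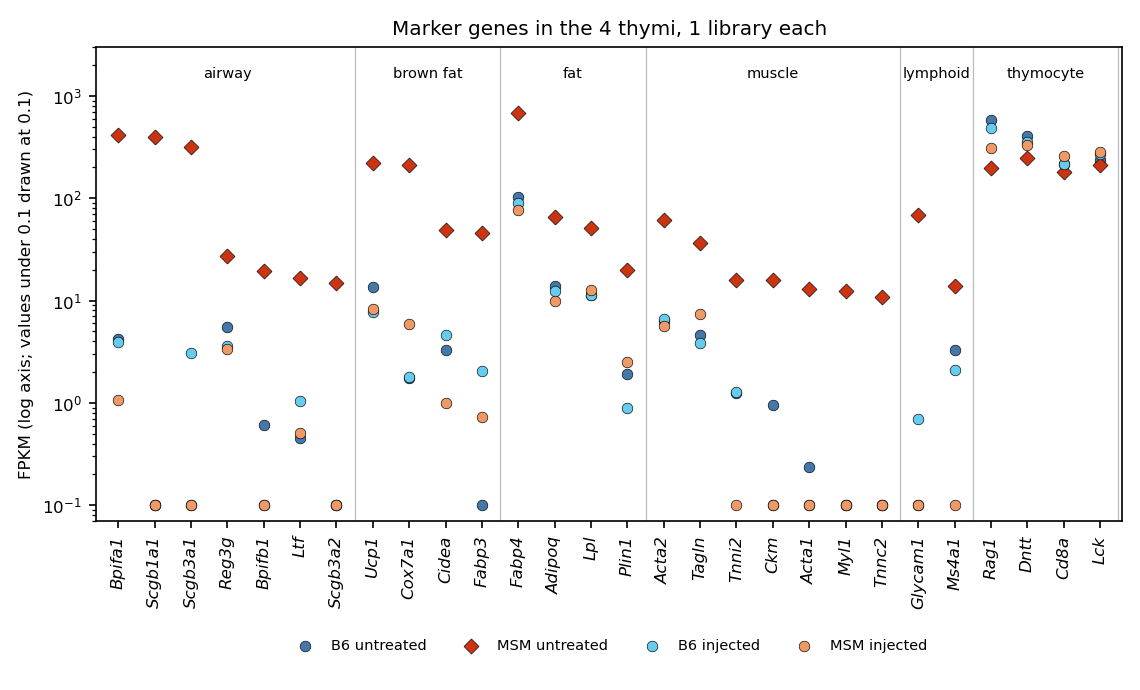
Level of marker genes (FPKM, log axis, values under 0.1 drawn at 0.1) in the 4 thymi, 1 point per library, grouped by tissue. The airway, fat, muscle and lymphoid genes plotted all met the rule, so the untreated MSM thymus (diamonds) is highest for them by choice. List genes that did not meet the rule, such as Cox8b and Ccl21a, are not plotted. The untreated MSM thymus is lowest for the thymocyte genes Rag1, Dntt, Cd8a and Lck.

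Muscle genes were lower in level and broad in number. Of 32 skeletal muscle genes 5 were among the 187. Ckm, the creatine kinase of muscle, was at 15.8 FPKM against 0.957, 0 and 0 FPKM, and Acta1, skeletal actin, at 12.9 FPKM against 0.236, 0 and 0 FPKM. Tnni2 (16.01 FPKM), Myl1 (12.4 FPKM) and Tnnc2 (10.8 FPKM), parts of the fast contractile apparatus, were at most 1.28 FPKM in the other thymi. Of the 25 skeletal muscle genes under 1 FPKM in both untreated livers, 23 had their highest thymus level in the untreated MSM thymus, where 19 reached 1 FPKM or more. The share over all genes under 1 FPKM in both untreated livers was not computed. A share is known only for genes chosen by another limit, which is no baseline for the muscle count. Of all 4387 genes at 10 FPKM or more in that thymus, 1180 were above the highest other thymus.

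Smooth muscle contributed Acta2, its actin, at 61.5 FPKM against 6.25, 6.58 and 5.69 FPKM, and Tagln, an actin-binding protein, at 36.3 FPKM against 4.61, 3.86 and 7.42 FPKM. No heart muscle gene reached 10 FPKM. The atrial myosin light chain gene Myl7 was at 7.31 FPKM against 0 in the other thymi, and the ventricular gene Myl2 was at 0 in all 4. Connective tissue genes were higher without meeting the rule: none of 12 was among the 187, and Dcn, a matrix proteoglycan, was at 72.2 FPKM against 33.8, 33.5 and 21.3 FPKM.

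Lymph node genes differed in direction. Glycam1, a mucin-like ligand for L-selectin made by the high endothelial venules of lymph nodes, was at 67.9 FPKM against 0, 0.701 and 0 FPKM. Cxcl13, a chemokine of lymph node follicles, was at 9.23 FPKM against 0.907, 1.54 and 1.00 FPKM, below the level limit. Madcam1 was at 0 against 0.476, 0.487 and 0 FPKM, and the chemokine gene Ccl21a was at 37.7 FPKM against 86.6, 49.0 and 31.6 FPKM. Of 13 genes on the list, Glycam1 was the one among the 187.

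Ms4a1, which encodes the B cell protein CD20, was at 13.7 FPKM against 3.28, 2.08 and 0 FPKM. The summed level of 18 B cell genes was 82.5 FPKM against 40.7, 34.2 and 11.2 FPKM. Ms4a1 alone of them met the rule, and the B cell receptor subunit Cd79b was at 9.25 FPKM against 9.61, 6.25 and 1.61 FPKM, so the untreated B6 thymus matched it.

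Genes on no list and not liver-high in the same mouse numbered 24, of which 17 were liver-high in neither liver. Several are known from fat or muscle. Fasn, fatty acid synthase, was at 158 FPKM against 27.1, 23.5 and 16.6 FPKM, and Agpat2, an enzyme of triglyceride synthesis, at 72.0 FPKM against 5.94, 1.87 and 3.54 FPKM. Cpt1b, the carnitine palmitoyltransferase of muscle and brown fat, was at 17.8 FPKM against 1.40, 0.880 and 1.43 FPKM. Wfdc2, a protease inhibitor of airway and other epithelia, was at 33.6 FPKM against 2.29, 1.76 and 1.90 FPKM. Pdk4, a kinase that limits glucose oxidation, was at 31.9 FPKM against 1.87, 1.09 and 3.45 FPKM. Others of the 17, among them Eci1, Myl9, Elovl6, Lypd2, Myl4, Fhl1, Cyp4b1, Acacb, Rbp7 and 2400009B08Rik, were at 10.9 to 41.4 FPKM. Snord8, a small nucleolar RNA gene (chr14:52209785-52209894), was listed at 156 FPKM against 0 in the other thymi. A transcript this short reaches a high FPKM from few fragments, and its fragments were not estimated.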

How the data were processed

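Polyadenylated RNA was sequenced from 8 libraries. Per the submitters' processing notes, TopHat and Cuffdiff 2.2.1 were used with mm10. The authors deposited FPKM per gene in 1 table for untreated and 1 table for injected mice. Every value had status OK, and which gene annotation was used is not given in the sources read here. The rule was applied to the FPKM as deposited, without a pseudocount or test, in Python 3.11.15 with pandas 2.3.3. Genes were grouped by 28 marker lists with 385 entries, 4 of which were not in the tables, and by their level in the livers. Named genes were the marker genes, list members that met the rule with up to 3 others per list, the highest and most extreme liver-high genes, the highest genes on no list, and the genes next to each limit. The genes and lists were chosen with earlier results of these data known. Depth was estimated from the steps between low FPKM values of 2015 genes with 1 transcript: 10 FPKM on 1 kb stood for 28.2 fragments in the untreated MSM thymus and 31.0 to 34.2 in the others, and 67.3% to 71.3% of values were whole within 0.1 fragment, against 20% by chance. Positions were matched for 182 of the 187 genes to GENCODE M21 by symbol and are counted from 1. The values of 1 gene among the 187 are not reported here. Scripts were tested on simulated data.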

Additional observations from a re-analysis of the deposited data

How the results depend on the processing

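The 187 genes became 401 with libraries rescaled to a common sum and 334 when scaled to the thymocyte genes. They became 309 at a minimum of 5 FPKM, 109 at 20 FPKM and 306 at a ratio of 2 times. The first 2 of these rescalings raise values against the fixed 10 FPKM, by factors of 3.17 and 1.50 in the untreated MSM thymus. The 132 genes high in the liver of the same mouse became 268, 220, 217 and 77 under those 2 rescalings and minimums of 5 and 20 FPKM. The 24 genes on no list became 69, 62, 43 and 13 under the same 4 settings. At 2 and 8 times they became 79 and 14, and against the untreated B6 thymus alone 68. Leaving out each of the other thymi gave 198 to 219 genes, of which 136 to 137 were liver-high and 29 to 49 on no list, with 49 without the injected MSM thymus. The median for B6-liver genes was 2.72% to 2.81% and that for MSM-liver genes 0.0540% to 0.125% under other limits, chosen after seeing the data. The lower bound of the deposited interval is 0 for all genes in the thymi, so the alternative that uses it was not run. No paired analysis was possible because each group holds 1 library. With 1 mouse per group, strain, mouse and library cannot be told apart.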
